A study of Mus musculus with 30 samples.

Results

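Ncam1, Runx1, Hdac4, Hdac9, Dach2 and Sik1 are genes of the signalling by which a muscle fibre registers the loss or the silence of its motor nerve. They were taken by symbol from a deposited table of gene expression, as 6 of its 47643 rows, of which 23193 were above 0 in at least 1 library. The 6 genes were chosen with earlier results of these data known. All 6 were above 0 in all 30 libraries. The table holds TPM, the usual measure of transcript level per length, scaled to the same total in each library.

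The libraries were made from RNA of the tibialis anterior, a fast shin muscle that lifts the foot, of male C57BL/6J mice, and form 8 groups in 4 experiments. The age experiment set 3 libraries of old muscle (24 months) against 3 of young muscle (6 months). Dexamethasone, a man-made glucocorticoid hormone, was set against a control of its own (n = 4 each). Muscle of mice with LLC cancer was set against its own control (n = 4 each); the labels do not spell out LLC, an abbreviation in wide use for Lewis lung carcinoma. Muscle given Cyr61 siRNAs, short RNAs that target the mRNA of the secreted matrix protein Cyr61, was set against muscle given NT siRNAs (n = 4 each). Doses, durations, the route of the siRNAs, the site of the tumour and the age of the last 6 groups are not in the labels. The labels call the samples biological replicates and do not say whether each came from its own animal, so a p-value measures the spread between these samples.

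When a muscle loses its nerve, electrical activity stops and the fibre returns to genes of its embryonic state. In the textbook account, the class IIa deacetylase HDAC4 builds up in the nuclei and lowers Dach2, a corepressor that holds down myogenin (Myog), and myogenin then raises the acetylcholine receptor subunits and the ubiquitin ligases Fbxo32 and Trim63. HDAC9, another class IIa deacetylase, holds down activity-dependent genes in innervated fibres, and SIK1, a salt-inducible kinase, phosphorylates class IIa deacetylases and the coactivators of CREB. The transcription factor RUNX1 and the adhesion molecule NCAM1 are low along innervated adult fibres and are long-used markers of denervation.

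By GENCODE M21 (mm10), Ncam1 spans chr9:49502136-49798925 and Runx1 chr16:92601466-92826149, both on the minus strand. Hdac4 spans chr1:91928779-92195699 and Hdac9 chr12:34047580-34917095, both on the minus strand. Dach2 spans chrX:113297510-113836386 on the plus strand, and Sik1 chr17:31844250-31855804 on the minus strand. RefSeq start regions (GRCm38.p6) matched Runx1, Hdac4, Hdac9 and Dach2, and also Myog, the myogenin gene at chr1:134289989-134292548 on the plus strand. Printed here are the stretches before the start of 2 genes whose RNA rose with dexamethasone (Runx1 and Hdac4), of Myog, which rose with them, and of Dach2, which ran against Runx1 from library to library. Bases annotated as exon were left out, each stretch is given 5′ to 3′ on the strand of its gene, and capitals mark the E-box letters CANNTG, which read the same on both strands and are the core bound by myogenic factors.
Runx1, chr16:92826150-92826324, minus strand: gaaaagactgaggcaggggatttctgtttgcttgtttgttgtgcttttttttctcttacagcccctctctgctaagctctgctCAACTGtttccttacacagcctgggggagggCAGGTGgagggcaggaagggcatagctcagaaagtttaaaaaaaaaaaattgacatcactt
Runx1, second start, chr16:92697330-92697579, minus strand: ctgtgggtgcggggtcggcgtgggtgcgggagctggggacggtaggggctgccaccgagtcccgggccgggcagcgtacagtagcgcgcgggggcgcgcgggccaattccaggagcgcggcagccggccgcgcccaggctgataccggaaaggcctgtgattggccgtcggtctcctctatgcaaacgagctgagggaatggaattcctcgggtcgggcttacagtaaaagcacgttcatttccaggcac
Hdac4, chr1:92180342-92180591, minus strand: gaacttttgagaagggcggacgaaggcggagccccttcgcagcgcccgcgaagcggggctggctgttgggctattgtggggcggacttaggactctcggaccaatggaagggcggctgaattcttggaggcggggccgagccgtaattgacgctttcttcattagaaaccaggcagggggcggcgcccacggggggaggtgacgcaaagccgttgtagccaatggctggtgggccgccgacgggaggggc
Myog, chr1:134289754-134289988, plus strand: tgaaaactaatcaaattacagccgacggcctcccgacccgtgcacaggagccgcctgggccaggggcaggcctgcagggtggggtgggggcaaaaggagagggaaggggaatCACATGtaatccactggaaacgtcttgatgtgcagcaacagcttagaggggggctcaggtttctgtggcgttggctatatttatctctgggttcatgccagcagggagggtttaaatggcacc
Dach2, chrX:113297260-113297509, plus strand: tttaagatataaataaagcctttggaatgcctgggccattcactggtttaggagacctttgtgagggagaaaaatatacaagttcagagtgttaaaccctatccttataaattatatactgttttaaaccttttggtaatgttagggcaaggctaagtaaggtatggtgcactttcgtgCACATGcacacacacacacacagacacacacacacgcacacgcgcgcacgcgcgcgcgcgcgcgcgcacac

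The first Runx1 stretch of 175 bases held 2 CANNTG matches, and 54.5% of 32851 RefSeq stretches of that length held at least 1. The Myog stretch of 235 bases held 1, against 64.1% of stretches of its length, and the Dach2 stretch of 250 bases held 1, against 66.2%. The second Runx1 stretch and the Hdac4 stretch held 0. The 2 Hdac9 stretches, not printed, held 3 and 2 CANNTG matches and 1 TGTTCT match each. The RUNX letters TGTGGT, the cAMP-response letters TGACGT and the glucocorticoid half-site letters TGTTCT, each searched on both strands, had 0 matches in the 5 stretches printed. Among stretches of 250 bases they occur in 14%, 6.47% and 16.1%. A match is a description of these letters and not a binding site.

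Depth, recovered as whole reads from the steps of the TPM values, was 27412235 to 54961777 reads per library. Muscle fibre markers were high throughout, with all 10 listed genes present and a sum of 76281 to 134550 TPM. The share of TPM in mitochondrially encoded genes was 34 to 41.5% with dexamethasone (4 libraries) and 46.3 to 50.7% in the matching controls. TPM adds up to a fixed total in each library. The log2 change of the median gene with dexamethasone was 0.33, and changes are also given relative to the median gene and after median-of-ratios scaling, which sets the middle gene of each library level. Fewer cells of a type and less RNA per cell cannot be told apart in these bulk samples.

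Across the 8 groups, Ncam1 and Runx1 were highest with dexamethasone. The order of mean Ncam1 ran from young (0.851 TPM) through old (1.04), LLC (1.47), LLC control (1.82), NT siRNA (1.93), Cyr61 siRNA (2.26) and dexamethasone control (3.46) to dexamethasone (13.8), and each neighbouring pair overlapped except the last. Mean Runx1 ran from 0.156 TPM in young muscle through 0.510 (LLC), 0.627 (old), 0.683 (LLC control), 1.38 (NT siRNA), 1.48 (dexamethasone control) and 1.62 (Cyr61 siRNA) to 5.67 TPM with dexamethasone, again with only the last pair apart. Hdac4 had group means of 7.11 (young) to 13.2 TPM (dexamethasone), with overlap between all neighbours in the order. Hdac9 group means ran from 1.36 (LLC) to 3.72 TPM (dexamethasone), also with overlap at every step.

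Dach2 and Sik1 had orders of their own. Dach2 was lowest in the LLC experiment (0.336 TPM with LLC, 0.378 in its control) and highest in the siRNA experiment (1.39 with Cyr61 siRNAs, 1.54 with NT siRNAs), so its group means differed more between these experiments than within either. Sik1 was lowest in young muscle (1.88 TPM), whose libraries lay under all LLC controls (4.26), and highest with dexamethasone (13.6), which overlapped the Cyr61 siRNA group (9.58). Levels of different experiments are set side by side without a test.

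**Figure D1:**
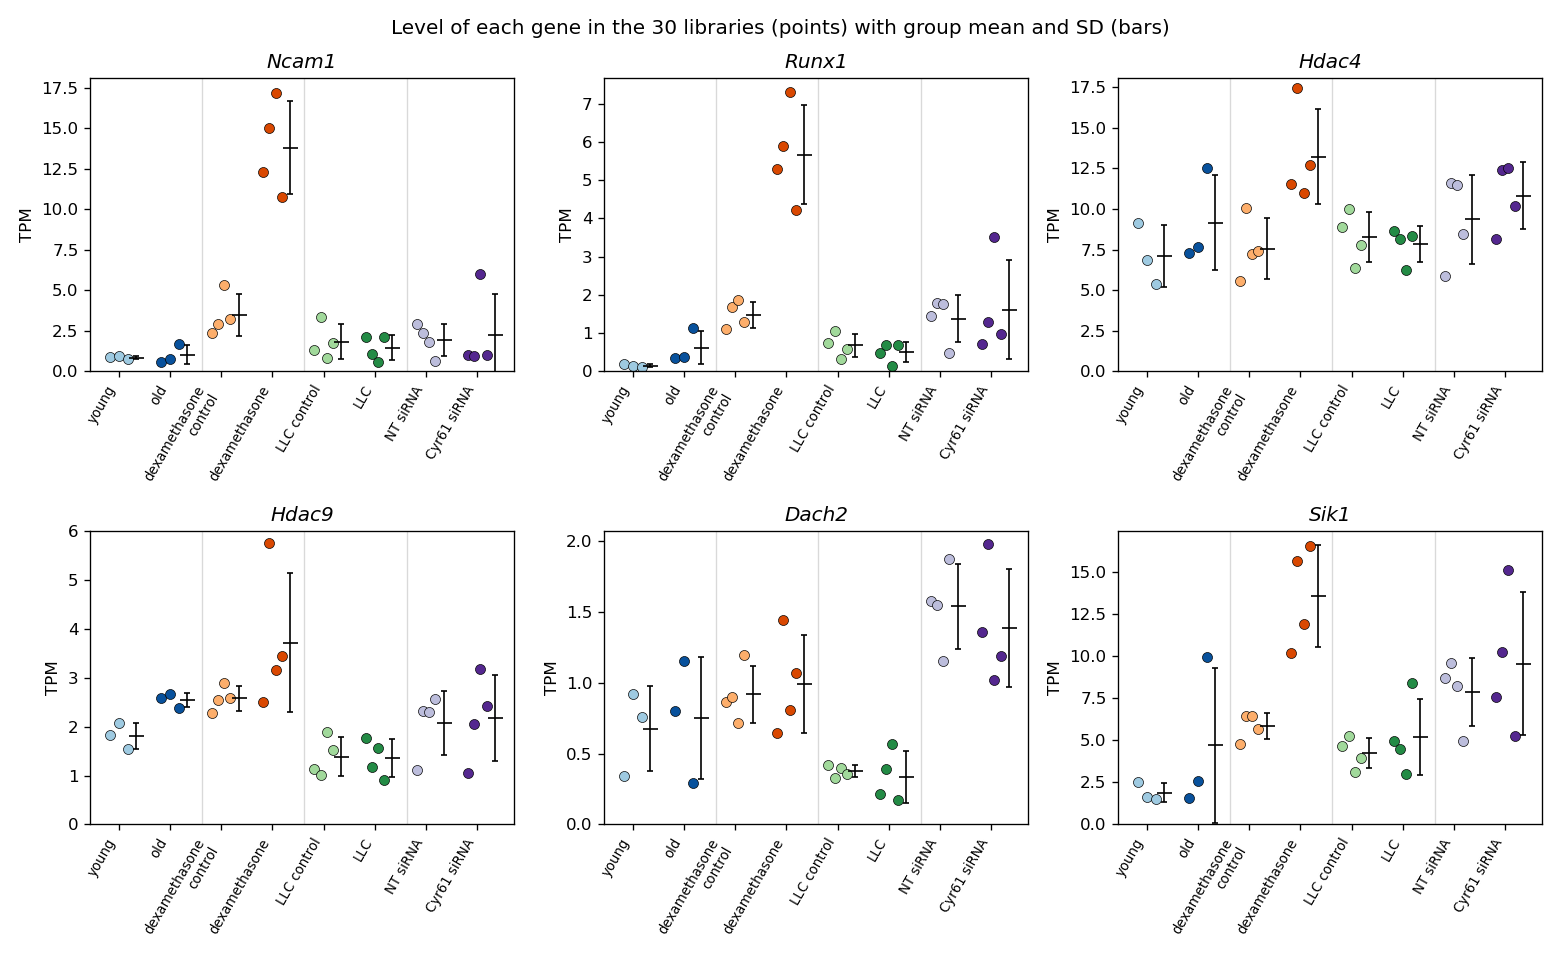
TPM of the 6 genes in the 30 libraries. Each point is a library, bars are group means with SD (drawn down to 0 where the SD passes it), and vertical lines part the 4 experiments. Ncam1 and Runx1 stand apart with dexamethasone, at 10.7 to 17.2 and 4.22 to 7.30 TPM.

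With dexamethasone, the denervation markers Ncam1 and Runx1 and the kinase gene Sik1 rose, and so did Hdac4 in the fit without scaling. Ncam1 rose 3.99-fold, Runx1 3.83-fold, Sik1 2.33-fold and Hdac4 1.74-fold by the ratio of mean TPM. Hdac9 and Dach2 did not pass the test or were too low for it. Of the 5 members above the filter on low values, 4 were called higher (limma, Benjamini-Hochberg adjusted p under 0.05 over all 11944 genes tested, two-sided), where 37.4% of all genes were called and 35.9% called higher. Log2 changes are differences of mean log2(TPM + 1). After scaling 3 were called higher, against 4.44% of all genes. The members were chosen with earlier results of these data known, so their counts are descriptions and not independent evidence.

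Ncam1 encodes the neural cell adhesion molecule. It stood at 12.3, 15, 17.2 and 10.7 TPM in dexamethasone libraries 1 to 4 and at 2.36, 2.91, 5.32 and 3.24 TPM in the controls. Every treated library was above every control. Dexamethasone 3 was the highest of the treated libraries, and control 3 of the controls. The log2 change of Ncam1 was 1.75 (SE 0.21, 95% interval 1.30 to 2.21, adjusted p = 0.000951 by limma), or 1.42 above the median gene and 1.44 after scaling (adjusted p = 0.00266 by limma).

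Runx1 encodes a DNA-binding partner of CBFB. Its level was 5.29, 5.90, 7.30 and 4.22 TPM with dexamethasone and 1.10, 1.67, 1.87 and 1.29 TPM in the controls. The groups did not overlap, and dexamethasone 3 was the highest library for Runx1 as for Ncam1. The log2 change was 1.42 (SE 0.16, 95% interval 1.06 to 1.78, adjusted p = 0.000849 by limma) and 1.15 after scaling (adjusted p = 0.00316 by limma).

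Sik1 was at 10.2, 15.7, 11.9 and 16.6 TPM with dexamethasone and at 4.80, 6.46, 6.44 and 5.68 TPM in the controls. Again the groups did not overlap, but here dexamethasone 4, the lowest library for Ncam1 and Runx1, was the highest. The log2 change was 1.08 (SE 0.16, 95% interval 0.72 to 1.43, adjusted p = 0.00241 by limma) and 0.75 after scaling (adjusted p = 0.00457 by limma).

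Hdac4 was at 11.5, 17.4, 11.0 and 12.7 TPM with dexamethasone and at 5.58, 10.1, 7.20 and 7.38 TPM in the controls. The groups did not overlap, though control 2 came close to the 2 lowest treated libraries. Its log2 change of 0.73 (SE 0.18, 95% interval 0.33 to 1.13) had an adjusted p of 0.0151 by limma. Relative to the median gene it was 0.40, and after scaling it was 0.40 with an adjusted p of 0.152 by limma, so the call did not hold after scaling. It was also lost after rescaling without mitochondrial genes (0.50, adjusted p = 0.107 by limma), and its adjusted p was 0.00272 to 0.197 over all alternatives.

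Hdac9 was at 2.51, 5.76, 3.16 and 3.45 TPM with dexamethasone and at 2.28, 2.54, 2.90 and 2.58 TPM in the controls, with overlap. Its log2 change of 0.36 (95% interval -0.05 to 0.76, adjusted p = 0.128 by limma) was 0.03 above the median gene. Without dexamethasone 1 it was 0.49 and was called (adjusted p = 0.0262 by limma), in a fit that called 8715 genes. Without dexamethasone 2 it was 0.17 (adjusted p = 0.302 by limma). Dach2 stayed under the filter, at 0.645 to 1.44 TPM with dexamethasone and 0.718 to 1.20 TPM in the controls, and its log2(TPM + 1) difference was 0.04 (adjusted p = 0.834 by limma without the filter). Of the 6 members, 4 had groups that did not overlap, and so did 36.0% of all genes tested. An exact permutation test (two-sided, 70 arrangements) gave each of these 4 the smallest p it can give, 0.0286, or 0.171 adjusted over the 24 tests of members and comparisons.

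**Figure D2:**
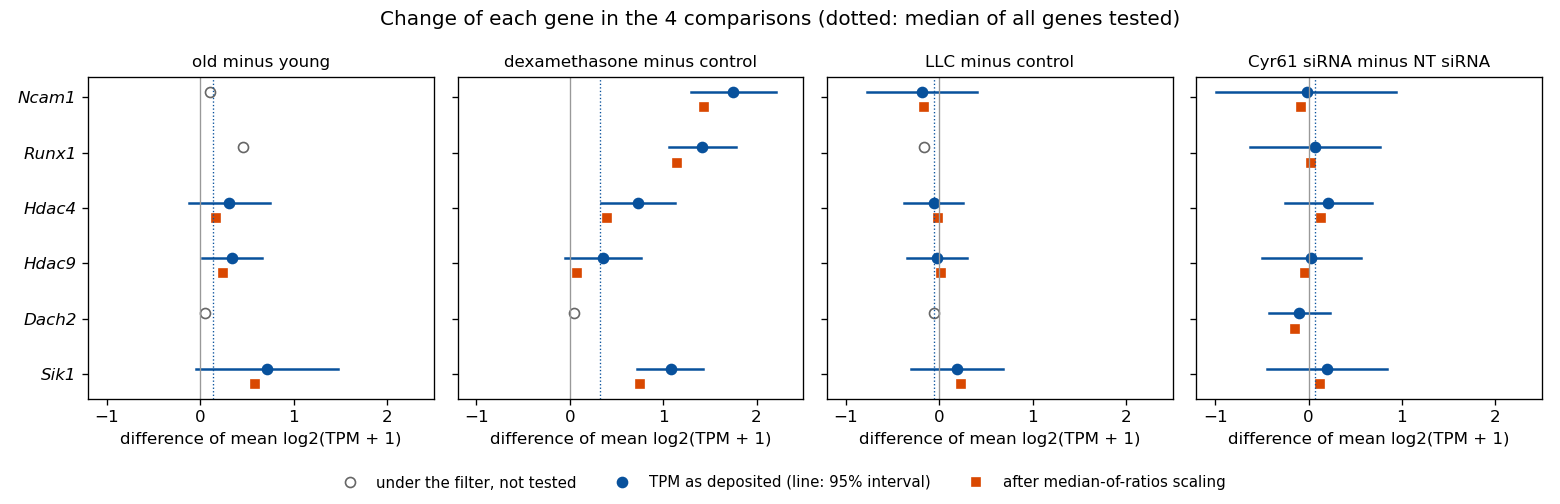
Difference of mean log2(TPM + 1) for each gene in the 4 comparisons, with 95% intervals from limma, and the same after median-of-ratios scaling (squares). The dotted line is the median of all genes tested, and open circles are genes under the filter. The intervals of Ncam1, Runx1, Sik1 and Hdac4 lie above 0 with dexamethasone.

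The genes around these members were followed in 10 lists of 93 distinct genes. The lists were chosen with earlier results of these data known, so their counts are descriptions. Of the 84 tested with dexamethasone, limma called 34 higher and 0 lower (35.9% and 1.51% of all genes), while scaling left 15 higher and 4 lower (4.44% and 4.71% of all genes). The most calls per gene tested came from the genes of the myogenin axis and the other genes known from denervated muscle. The median of the class IIa deacetylases, that of their kinases and that of the CREB coactivators each lay within 0.04 of the median gene. The fit without dexamethasone 1 called 8495 of all genes higher, against 4290 with all libraries. Counts of list genes and markers without that library stand beside this larger number.

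Of 15 genes of the HDAC4, Dach2 and myogenin axis, 9 were called higher and 0 lower, where 35.9% of all genes were called higher. The list median was 0.84, against 0.33 for all genes tested. The acetylcholine receptor genes are in this list. Myog rose from 22.8 ± 7.44 to 72.0 ± 16.7 TPM (mean ± SD, n = 4 each; log2 change 1.64, adjusted p = 0.00161 by limma). Chrng, which encodes the embryonic gamma subunit of that receptor, rose from 1.84 ± 0.989 to 8.23 ± 1.92 TPM (1.73), and Chrna1, the alpha subunit, from 16.3 ± 3.97 to 53.8 ± 16.5 TPM (1.64). The ubiquitin ligase genes Fbxo32 and Trim63 were called higher (0.84 and 0.94), though not after scaling. Chrne, the adult epsilon subunit that takes the place of the gamma subunit, stood at 11.0 ± 1.17 TPM against 13.1 ± 1.30 in the controls (log2 change -0.24, adjusted p = 0.118 by limma). After scaling 5 genes were called higher, and Chrne (-0.57) and Eya1 (-0.36) were called lower. The count was 7 without dexamethasone control 4 and 11 without dexamethasone 1.

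All 8 of the other genes known to rise in denervated muscle were called higher, against 35.9% of all genes, with a median of 1.78. After scaling 7 were, against 4.44% of all genes. The list was chosen with earlier results of these data known, so its count is a description and not independent evidence. Of its members, Myh8 was among the genes most like Ncam1, and Ampd3 and Gadd45a among those most like Sik1. The perinatal and embryonic myosins Myh8 and Myh3 stood at 58.5 ± 18.8 and 114 ± 25.1 TPM, against 11.0 ± 6.69 and 27.2 ± 21.1 in the controls (log2 changes 2.39 and 2.29). Cdkn1a, an inhibitor of the cell cycle, rose from 25.1 ± 6.64 to 99.9 ± 26.8 TPM (1.95). The count was 8 in each of the 8 fits that left out 1 library.

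Of 8 class IIa deacetylases, MEF2 factors and corepressors, 1 was called higher, Mef2a, a transcription factor that class IIa deacetylases hold down (24.5 ± 2.05 to 36.7 ± 5.93 TPM, 0.55), and 0 after scaling. Of all genes tested 35.9% were called higher. Of 13 kinases and phosphatases tested 4 were called higher, with a median of -0.04 relative to all genes tested. They were the SIK1 relative Sik3 (0.54), Camk2d (0.53), a calcium and calmodulin kinase, Prkaca (0.40), a catalytic subunit of protein kinase A, and the calcineurin subunit Ppp3ca (0.30). After scaling 0 of them were called, and Prkd2, a protein kinase D, was called lower (-0.57). Without dexamethasone 1, in a fit that called 8715 genes, the first count was 8 and the second 9. Without each other library in turn both were 1. Ppp3ca, Prkd2, Chrne, Eya1, Fbxo32 and Trim63 are named after their values were seen.

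The transcription factor CREB and its coactivators had 0 of 6 genes called by limma (2 at an unadjusted p under 0.05, 0 with voom), with a median of -0.04 relative to all genes tested. Without dexamethasone 1 the count was 5 of 6, in a fit that called 8715 genes, against 4470 with all libraries.

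Of the RUNX family and its partners, 2 of 5 genes were above the filter. Cbfb, which encodes the subunit that RUNX proteins need for firm DNA binding, rose from 42.9 ± 4.24 to 69.3 ± 15 TPM (n = 4 each; log2 change 0.66, adjusted p = 0.0118 by limma), and was not called after scaling. Of the NCAM1 relatives, partners and polysialyltransferases, 0 of 4 tested were called by limma (3 at an unadjusted p under 0.05, 0 with voom). Without dexamethasone 1, in a fit that called 8715 genes, the count was 4 of 5, and it was 1 of 5 without each of dexamethasone controls 1 to 4. Leaving out a library made the smaller group smaller and so eased the filter, and 5 genes were tested in place of 4. These counts are therefore not of the same genes. St8sia2, which encodes an enzyme that adds polysialic acid to NCAM1, was under the filter at 1.5 ± 0.460 TPM with dexamethasone and 0.435 ± 0.159 TPM in the controls, and is named after its values were seen.

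Of 9 immediate-early genes of cAMP and activity, 3 were called higher, where 35.9% of all genes were. The list median was 0.27, against 0.33 for all genes tested. Junb rose from 13.7 ± 3.12 to 25.8 ± 1.63 TPM (log2 change 0.89), Egr1 by 0.77 and Fos by 0.60 on the log2 scale. After scaling 1 of them, Egr1, was called, and leaving out 1 library gave 2 to 5 calls, with 5 of 10 tested without dexamethasone 1. Of 8 targets of the glucocorticoid receptor, 2 were called higher, with a list median of 0.26, also under that of all genes tested. Fkbp5, a co-chaperone of that receptor, rose from 6.06 ± 0.517 to 18.4 ± 7.77 TPM (1.37), and Cebpd, a transcription factor, by 0.81. Scaling left 1 call. Leaving out dexamethasone 1 gave 3 calls and dexamethasone 3 gave 2, and each of the other 6 libraries gave 1.

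Of 13 clock genes, 6 were called higher, against 35.9% of all genes. They bear on Sik1 because SIK1 is known to limit resetting of the clock. The 3 with the largest changes were the clock repressors Ciart (log2 change 1.18) and Per2 (1.12) and the output factor Dbp (1.07). After scaling Cry2 was called higher and Arntl lower (-0.81). Without dexamethasone 1, in a fit that called 8715 genes, 11 clock genes were called. The count was 5 without dexamethasone 3 and 2 to 4 without each of the others. Cry2 and Arntl are named after their values were seen.

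**Figure D3:**
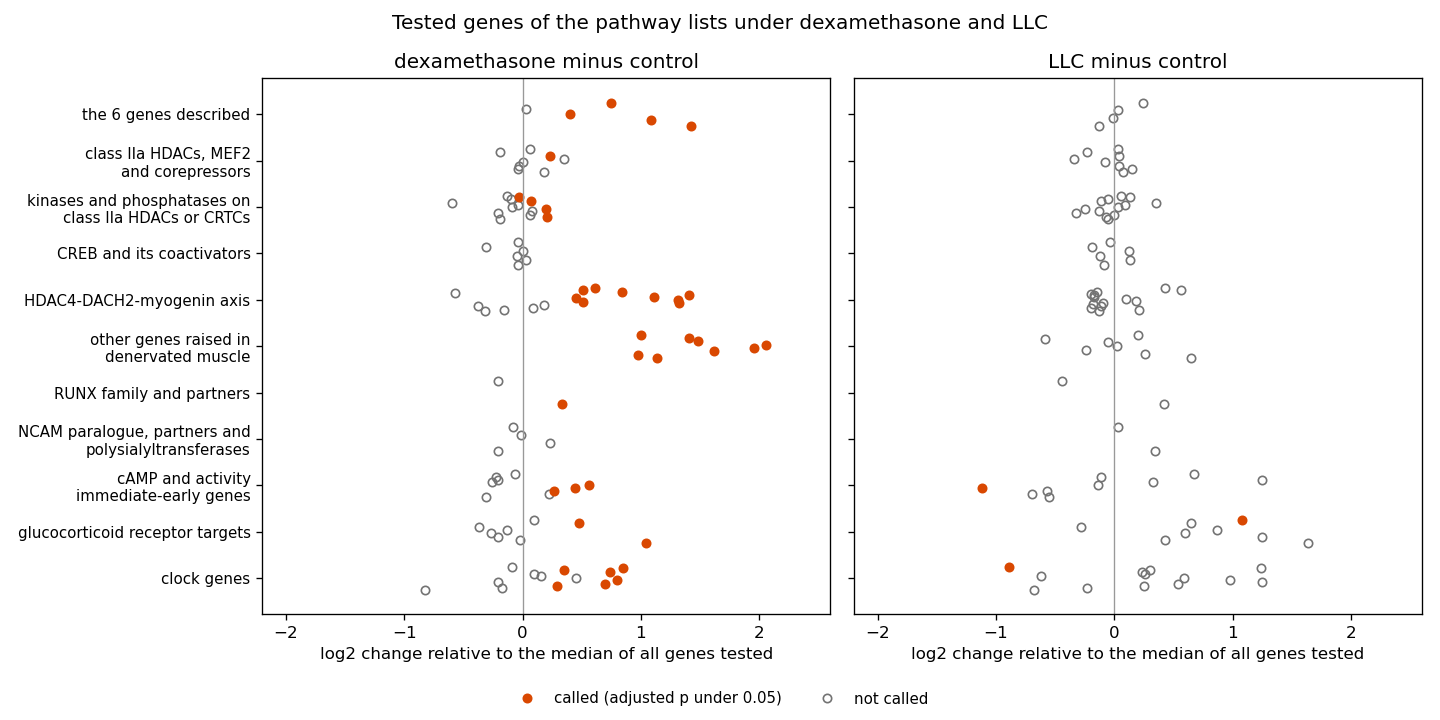
Log2 change of each tested gene of the lists relative to the median of all genes tested, by comparison. Filled points were called by limma without scaling and open points were not. With dexamethasone the other genes raised in denervated muscle all lie above the median gene, with a list median of 1.78 before that median is taken off. The lists were chosen with earlier results of these data known.

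Some markers of other cells differed with the treatment, in both directions. Of all genes 35.9% were called higher and 1.51% lower, and 4.44% and 4.71% after scaling. RUNX1 is also made by blood cells, and NCAM1 by Schwann cells and satellite cells. The summed level of 9 macrophage markers was 117 to 219 TPM with dexamethasone and 44.5 to 74.0 TPM in the controls, and 7 of the 9 tested were called higher (4 after scaling, and 4 to 7 without 1 library, with 4 without dexamethasone control 2). Satellite cell markers summed to 27.4 to 35.5 TPM against 16.9 to 20.6 TPM, with 2 of 4 tested called higher (1 after scaling). Their median change was 0.10 above that of all genes tested. Schwann cell markers summed to 78.8 to 99.4 TPM against 64.5 to 90.4 TPM, with 1 of 9 called higher. That count was 0 after scaling, 0 with voom, 3 without dexamethasone 1 and 0 without each other library. Other leukocyte markers summed to 10.2 to 85.2 TPM against 4.28 to 11.4 TPM, with 2 of 2 tested called higher. Endothelial markers went the other way, at 118 to 171 TPM against 157 to 176 TPM, with 1 of 6 called lower and 4 after scaling. The count before scaling was 0 when dexamethasone control 1, 2 or 3 or dexamethasone 3 was left out. Markers of fibroadipogenic progenitors summed to 589 to 847 TPM against 473 to 637 TPM, with 1 of 6 called higher and 1 lower, and 0 and 1 after scaling. Without dexamethasone 1 they had 3 called higher, without dexamethasone control 3 or dexamethasone 4 they had 1, and 0 without each other library, while 0 were called lower in any of these fits. In neither group was a marker of these lists at 0 in all libraries. The part of these cells in the changes of the 6 genes was not tested.

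In old muscle 0 of the 3 members above the filter were called by limma (1 at an unadjusted p under 0.05, 0 with voom), where 0.171% of 10511 genes were called. Hdac9 stood at 2.6, 2.68 and 2.38 TPM in old libraries 1 to 3 and at 1.82, 2.07 and 1.55 TPM in the young. The groups did not overlap, and its log2 difference was 0.34 (95% interval 0.02 to 0.66, adjusted p = 0.426 by limma).

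Sik1 was at 1.55, 2.6 and 9.98 TPM in old muscle and at 2.53, 1.61 and 1.49 TPM in young muscle, so 1 library set the old mean apart. The log2 difference was 0.71 (95% interval -0.05 to 1.47, adjusted p = 0.465 by limma). It was 0.90 and called without old 2 (adjusted p = 0.0115 by limma), and 0.09 without old 3 (adjusted p = 0.942 by limma). Hdac4 was at 7.27, 7.65 and 12.5 TPM against 9.11, 6.86 and 5.35 TPM, with overlap (0.31, 95% interval -0.12 to 0.75, adjusted p = 0.571 by limma). Its difference was 0.09 without old 3, 0.15 without young 3 and 0.49 without young 1.

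Runx1 was under the filter with age. It was at 0.363, 0.392 and 1.13 TPM in old muscle and 0.197, 0.155 and 0.116 TPM in young muscle, which are 65, 83 and 201 recovered reads against 37, 34 and 24. Every old library was above every young one, as were Hdac9's, and 16.2% of the genes tested had groups that did not overlap in either direction. The ratio of mean TPM was 4.02, but the difference of mean log2(TPM + 1) was 0.46 (adjusted p = 0.504 by limma without the filter), and voom on genes of at least 10 reads gave 1.76 (adjusted p = 0.248). An exact permutation test gave 0.1, the smallest p that 20 arrangements allow. Ncam1 (0.10) and Dach2 (0.05), also under the filter, overlapped between the ages.

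The library old 3 was the highest of the 3 old libraries for Ncam1 (1.72 TPM), Runx1, Hdac4 and Sik1 and the lowest for Dach2 (0.296 TPM). Mitochondrial genes took 43.7% of its TPM, against 48.0 to 52.5% in the other 5 libraries of the age experiment. Its Schwann cell markers summed to 101 TPM, against 40.8 and 50.5 TPM in old 1 and old 2. Their part in the values of old 3 was not tested. Among the other genes known from denervated muscle, 0 of 5 tested were called by limma with age (4 at an unadjusted p under 0.05, 0 with voom), with a median of 0.83 against 0.14 for all genes tested. In this list 4 genes were called higher without old 2 or without young 2, 3 without young 1, 1 without old 1 and 0 without old 3 or young 3. Over all 10 lists 0 of 77 genes tested were called by limma (14 at an unadjusted p under 0.05, 0 with voom).

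With LLC 0 of the 4 members above the filter were called by limma (0 at an unadjusted p under 0.05, 0 with voom), where 1.18% of 10830 genes were called. Ncam1 was at 2.10, 1.06, 0.587 and 2.14 TPM in LLC libraries 1 to 4 and at 1.34, 3.35, 0.855 and 1.74 TPM in the controls. The groups overlapped through most of their range, with a log2 difference of -0.18 (95% interval -0.77 to 0.41, adjusted p = 0.858 by limma). Runx1, under the filter, was at 0.494, 0.705, 0.149 and 0.693 TPM against 0.753, 1.05, 0.336 and 0.594 TPM.

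The class IIa deacetylase genes did not pass the test with LLC. Hdac4 was at 6.21 to 8.64 TPM with LLC and 6.36 to 9.98 TPM in the controls (log2 difference -0.06, 95% interval -0.38 to 0.26). Hdac9 was at 0.908 to 1.77 TPM and 1.02 to 1.88 TPM (-0.02, 95% interval -0.34 to 0.30). Both groups overlapped for each gene. Sik1 was at 4.95, 4.47, 3.00 and 8.39 TPM against 4.66, 5.25, 3.15 and 3.96 TPM (0.19, 95% interval -0.30 to 0.68). Dach2, under the filter, was at 0.170 to 0.567 TPM against 0.329 to 0.422 TPM.

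The library LLC 3 was the lowest of its group for Ncam1, Runx1, Hdac4 and Sik1 and the highest for Dach2. Mitochondrial genes took 60.4% of its TPM, against 46.5 to 49.3% in the other LLC libraries. Every marker list had its lowest sum of the LLC group in LLC 3. Macrophage markers summed to 5.75 TPM, against 15.5 to 33.8 TPM in the other LLC libraries. Muscle fibre markers summed to 76281 against 100905 to 113433 TPM, Schwann cell markers to 28.4 against 37.4 to 59.5 TPM and satellite cell markers to 8.1 against 13.5 to 15 TPM. Their part in its values was not tested. Of the 6 members 0 had groups apart, and 7.63% of genes tested did.

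Of 80 list genes tested with LLC, 1 was called higher (0.295% of all genes) and 2 lower (0.886%), and 7 and 2 after scaling (1.67% and 1.57%). Of the HDAC4, Dach2 and myogenin axis 0 of 14 were called by limma (1 at an unadjusted p under 0.05, 0 with voom), and of the other genes known from denervated muscle 0 of 7 (1 at an unadjusted p under 0.05, 0 with voom). The immediate-early factor Egr1 fell from 4.02 ± 1.23 to 1.24 ± 0.603 TPM (n = 4 each; log2 change -1.17, adjusted p = 0.025 by limma). The clock repressor Bhlhe41 fell from 16.1 ± 2.79 to 7.81 ± 0.742 TPM (-0.94, adjusted p = 0.0114 by limma). Foxo1, a transcription factor that drives atrophy genes and is listed with the glucocorticoid receptor targets, rose from 2.59 ± 0.310 to 6.60 ± 2.23 TPM (1.03, adjusted p = 0.0362 by limma). After scaling 4 of the 8 receptor targets were called higher, and so were 4 without LLC 3. Without any of LLC 1, 2 and 4 and LLC controls 2, 3 and 4 the count of these targets was 0. The immediate-early genes had 0 called lower without LLC 1 or LLC controls 1, 2 or 4, and the clock genes 0 without LLC 1 or LLC control 4.

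For the siRNA experiment the targeted gene comes first. Cyr61 was at 32.9, 52.8, 45.8 and 25.5 TPM in the libraries labelled Cyr61 siRNA and at 57.0, 64.6, 67.8 and 36.8 TPM in those labelled NT siRNA. The groups overlapped, and the means of 39.2 ± 12.3 and 56.6 ± 13.9 TPM (n = 4 each) did not pass the unpaired test. Each Cyr61 siRNA library was under the NT siRNA library of the same number. The labels do not say whether these numbers mark pairs. Of 11006 genes 0 were called by limma (109 at an unadjusted p under 0.05, 0 with voom), or 0.00%, and 0 of the 6 members (0 at an unadjusted p under 0.05, 0 with voom). All 6 were overlapping, and 0.990% of genes tested were not.

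Ncam1 was at 1.05, 0.947, 6.02 and 1.02 TPM with Cyr61 siRNAs and at 2.91, 2.38, 1.81 and 0.621 TPM with NT siRNAs. Apart from Cyr61 siRNA 3, the libraries labelled Cyr61 siRNA lay within the range of the NT libraries. The log2 difference was -0.02 (95% interval -0.99 to 0.94), and it was -0.48 without Cyr61 siRNA 3. Runx1 was at 0.706, 1.28, 3.52 and 0.986 TPM against 1.46, 1.79, 1.78 and 0.496 TPM, again with Cyr61 siRNA 3 on its own (0.07, 95% interval -0.63 to 0.77, and -0.22 without that library).

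The other members had narrower intervals. Hdac4 differed by 0.21 (95% interval -0.25 to 0.68), Hdac9 by 0.03 (-0.50 to 0.56), Dach2 by -0.10 (-0.42 to 0.23) and Sik1 by 0.20 (-0.44 to 0.84) on the log2 scale. Dach2 was above the filter in this comparison, at 1.36, 1.98, 1.02 and 1.19 TPM against 1.58, 1.55, 1.15 and 1.88 TPM, and Cyr61 siRNA 3 was its lowest library. In Cyr61 siRNA 3 mitochondrial genes took 42.2% of TPM, against 49.5 to 52.0% in the rest of its group. Its macrophage and satellite cell markers had the highest sums of the group, 46.0 TPM (9.6 to 36.2 in the rest) and 19.9 TPM (11.8 to 13.6). Its Schwann cell markers had the lowest, 31.3 TPM (37.5 to 50.3). NT siRNA 4 was the lowest library for Ncam1 and Runx1, with mitochondrial genes at 57.2% of TPM. Their part in these values was not tested.

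The responses were then compared with each other in 1 fit of the 22 libraries of the age, dexamethasone and LLC experiments, in which each has its own controls. The response of Ncam1 to LLC was lower than that to dexamethasone by 1.93 on the log2 scale (difference -1.93, 95% interval -2.66 to -1.19, adjusted p = 0.00139 by limma). That of Runx1 was lower too (-1.57, 95% interval -2.07 to -1.08, adjusted p = 0.000291 by limma), and both differences held after scaling (-1.56 and -1.26, adjusted p = 0.01 and 0.00248 by limma). With scaling, no filter and a pseudocount of 0.1 together, the Ncam1 difference was no longer called (-1.88, adjusted p = 0.0529 by limma). Hdac4 also differed (-0.79, 95% interval -1.35 to -0.24, adjusted p = 0.0356 by limma), but not after scaling (-0.40, adjusted p = 0.292 by limma). Leaving out any of dexamethasone controls 1, 3 and 4, dexamethasone 2 and 4, LLC controls 1, 2 and 4 and LLC 3 also lost the Hdac4 call (adjusted p = 0.0515 to 0.0838 by limma). Sik1 (-0.89, adjusted p = 0.111 by limma), Hdac9 (-0.38) and Dach2 (-0.10) did not pass the test, and Sik1 was called without old 3 (adjusted p = 0.0326 by limma). The 3 of 6 members called, and 2 of 6 after scaling, stand beside 27.6% of 12392 genes (26.5% lower) and 6.56% after scaling (3.70% lower).

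The response of Ncam1 to age was lower than that to dexamethasone (-1.65, 95% interval -2.45 to -0.86, adjusted p = 0.0219 by limma), where 2.06% of genes were called (1.30% lower, and 0.807% lower after scaling). After scaling it was -1.39 with an adjusted p of 0.0498 by limma, and it lost its call with pseudocounts of 0.1 and 0.5 (adjusted p = 0.165 and 0.0599), without mitochondrial genes (-1.54, adjusted p = 0.0747), with each of the 3 forms of voom (adjusted p = 0.27 to 0.335) and with scaling, no filter and a pseudocount of 0.1 together (adjusted p = 0.164). The call was also lost without any of old 1, old 2, young 1, young 2, dexamethasone controls 1 and 2 and dexamethasone 3 (adjusted p = 0.0506 to 0.0734 by limma). Runx1 had a difference of -0.95 (95% interval -1.49 to -0.42, adjusted p = 0.0553 by limma), and 0.01 by voom on recovered reads (adjusted p = 0.999). Its ratio of mean TPM was 4.02 with age and 3.83 with dexamethasone. The lower response to age was thus seen on the log2(TPM + 1) scale and not in these ratios. On the log2(TPM + 1) scale, the difference was called without any of old 3, dexamethasone control 3, dexamethasone 4, LLC controls 2 and 3 and LLC 3 (adjusted p = 0.0167 to 0.0495 by limma). Between age and LLC 0 of the 6 members were called by limma (1 at an unadjusted p under 0.05, 0 with voom), where 0.0484% of genes were called. Runx1 was the member at the unadjusted p, with a difference of 0.62 (95% interval 0.09 to 1.15, adjusted p = 0.349).

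The members also varied together between libraries of the same group. Group means were taken off the scaled log2(TPM + 1) values, and the deviations of the 30 libraries were correlated for 28 pairs of the 6 genes, Myog and the mitochondrial share. The last 2 were added after seeing the data. Ncam1 and Runx1 had a Pearson r of 0.86 (permutation p = 5e-05, adjusted p = 0.00056) and a Spearman rho of 0.81 (permutation p = 9e-05). Without LLC control 2 and Cyr61 siRNA 3, the libraries farthest out for Ncam1, r was 0.78. Within the age, dexamethasone, LLC and siRNA experiments it was 0.96, 0.84, 0.76 and 0.91.

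Ncam1 went with Myog at r = 0.91 (permutation p = 1e-05, the smallest the resampling can give, adjusted p = 0.00028), with a rho of 0.91 (permutation p = 1e-05) and 0.88 without the same libraries. Runx1 went with Myog at 0.76 (permutation p = 0.00017, adjusted p = 0.00119), with a rho of 0.74 (permutation p = 0.00023), and 0.68 without Cyr61 siRNA 3 and NT siRNA 4. Within the 4 experiments the values were 0.80 to 0.99 for Ncam1 and 0.72 to 0.91 for Runx1. Libraries of 1 group that were high for one of these 3 genes thus tended to be high for the others.

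Dach2 ran the other way. Its r with Runx1 was -0.62 (permutation p = 0.00144, adjusted p = 0.00632; rho -0.67, permutation p = 0.00021), -0.54 without Cyr61 siRNA 3 and NT siRNA 4, and -0.83, -0.68, -0.69 and -0.63 within the 4 experiments. With Ncam1 it was -0.57 (permutation p = 0.00225, adjusted p = 0.007; rho -0.60, permutation p = 0.0008), -0.55 without LLC control 2 and Cyr61 siRNA 3, and -0.63 to -0.70 within experiments. With Myog it was -0.55 (permutation p = 0.00567, adjusted p = 0.0132; rho -0.57, permutation p = 0.00365; -0.57 without old 3 and young 1).

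**Figure D4:**
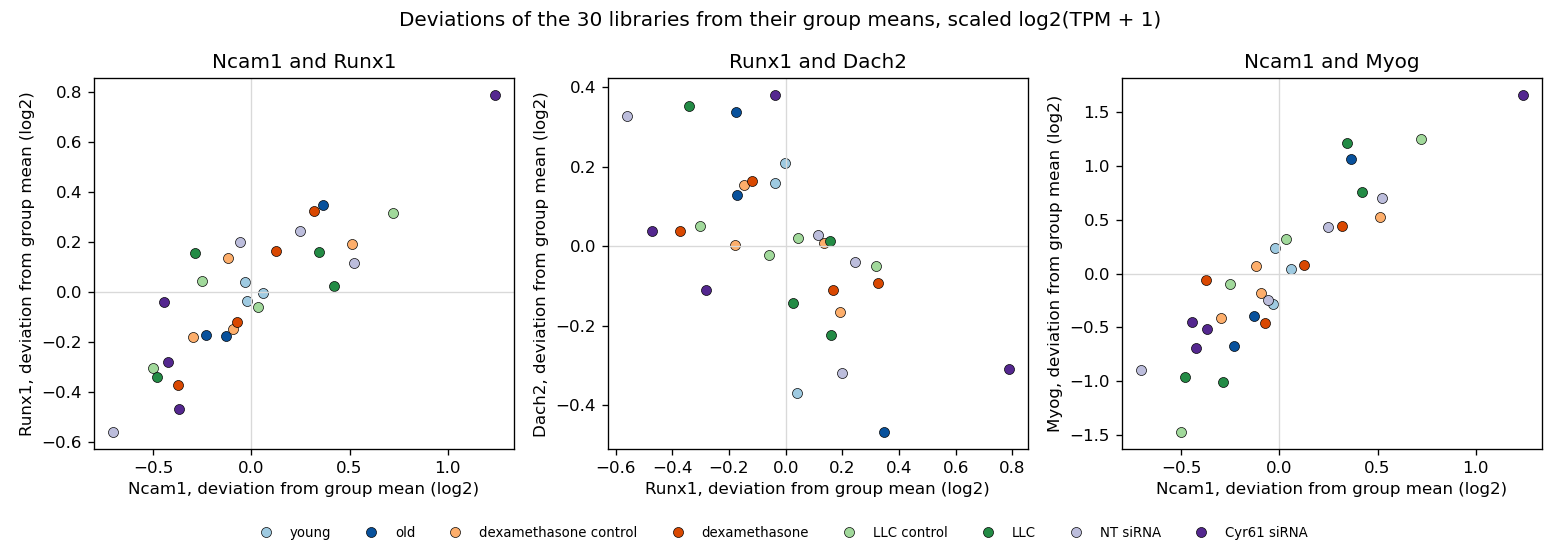
Deviations of the 30 libraries from the mean of their group on the scaled log2(TPM + 1) scale, with a colour for each of the 8 groups. Ncam1 with Runx1 (r = 0.86) and Ncam1 with Myog (r = 0.91) run upward, and Runx1 with Dach2 (r = -0.62) downward.

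Sik1 went with Runx1 at r = 0.62 (permutation p = 0.00158, adjusted p = 0.00632; rho 0.64, permutation p = 0.00101) and 0.55 without Cyr61 siRNA 3 and NT siRNA 4. With Ncam1 it was 0.59 (permutation p = 0.00083, adjusted p = 0.00465; rho 0.61, permutation p = 0.00178) and 0.53 without LLC control 2 and Cyr61 siRNA 3. Within the dexamethasone experiment r was -0.26 and -0.18. Hdac4 went with Sik1 at r = 0.42 (permutation p = 0.0299, adjusted p = 0.0558) and a rho of 0.55 (permutation p = 0.00691, adjusted p = 0.0157), and r was 0.55 without dexamethasone control 2 and NT siRNA 1. Within the age, dexamethasone, LLC and siRNA experiments it was 0.82, 0.48, 0.53 and 0.14. Neither this nor any other pair with Hdac4 or Hdac9 had an adjusted p under 0.05 for r, and their r with each other was 0.27 (permutation p = 0.22; rho 0.12, permutation p = 0.574; 0.11 without dexamethasone control 2 and NT siRNA 1).

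The mitochondrial share went with the same genes. Its r was -0.53 with Ncam1, -0.62 with Runx1, -0.59 with Sik1 and 0.65 with Dach2 (permutation p = 0.0155, 0.00407, 0.00421 and 0.00202, adjusted 0.0334, 0.0107, 0.0107 and 0.007; rho -0.51, -0.58, -0.62 and 0.57, permutation p = 0.0138, 0.00727, 0.003 and 0.00645). Without the 2 farthest libraries the values were -0.49, -0.48, -0.56 and 0.61. Within the dexamethasone experiment they were 0.08, 0.44, -0.26 and -0.66, so for Ncam1, Runx1 and Dach2 the sign there was the opposite of the pooled one. The part of the mitochondrial share in the pairs of genes was not tested.

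The genes most like each member were sought among 10314 genes, by Pearson's r over the 30 libraries after the mean of each experiment was taken off, which keeps the differences between groups. For Ncam1 they were Myl6b (0.93), Tnnt2 (0.92) and Myh8 (0.91), and for Runx1 they were Ncam1 (0.90), Ahnak2 (0.89) and Slc7a5 (0.89). For Sik1 they were Ampd3 (0.84), Gadd45a (0.82) and Irf3 (0.81). Dach2 was most like Chpt1 (0.80), Pnpt1 (0.76) and Slc15a5 (0.75), and Hdac9 most like Ankrd26 (0.78), Prrx1 (0.77) and Rbfox2 (0.77). Hdac4 had the weakest likenesses, with Pgrmc2 (0.70), Ptpn14 (0.70) and Zswim4 (0.69). Without the dexamethasone experiment (22 libraries) these values were 0.81 to 0.88 for Ncam1 and Runx1 and 0.67 to 0.73 for Hdac4.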

How the data were processed

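The authors deposited 1 table of TPM per gene for 30 RNA-seq libraries (TruSeq stranded mRNA kit, per the labels). The genome build is mm10 per the submitters' processing notes. The sources used here name no aligner and no counter, nor its use of strand. All columns were matched to a sample by name, and 0 were left unused.

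Differences were fitted on log2(TPM + 1) with limma 3.58.1 (R 4.3.3, variance trend, two-sided, Benjamini-Hochberg over all genes tested, called at an adjusted p under 0.05), in each comparison on its own 2 groups. The filter asked for at least 1 TPM in a number of libraries equal to the smaller group (3 in the fit of 22 libraries). Median-of-ratios scaling was an alternative, used also for the correlations. Whole reads were recovered from the TPM steps within 0.05 reads for 23193 genes, of which 15810 were whole at the GENCODE M21 length. Reads of the other genes may be low by a whole factor. Voom on these reads, scaled or not, with the TPM filter or at least 10 reads, was chosen after seeing the data, as were the fit that joins scaling, no filter and a pseudocount of 0.1, and list counts without single libraries. The code was tested on simulated data.

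The 6 genes and all lists were chosen with earlier results of these data known. Named are the 6 genes, up to 3 called genes per list, direction and comparison by size of change (with a higher mean of 1 TPM or more), Cyr61 for its siRNAs and the 3 genes most like each member, passing over numbered predicted genes and pseudogenes. Alternatives were pseudocounts of 0.1 and 0.5, no filter or 5 TPM, scaling, rescaling without mitochondrial genes, 1 fit of all groups, robust eBayes, the replicate number as a block and leaving out each library. Sequences are from RefSeq. Python 3.11.15 with scipy 1.17.1, pandas 2.3.3 and numpy 2.4.6 gave correlations and permutation tests, and matplotlib 3.10.9 the plots.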

Additional observations from a re-analysis of the deposited data

Results flagged for a closer look

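Ncam1 in Cyr61 siRNA 3 stood at 6.02 TPM, far from the other 3 libraries of its group at 0.947 to 1.05 TPM. It was the only outlying library by Dixon's criterion in 36 sets of 4 libraries, a criterion that chance meets in about 1 of 20 sets.

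The responses of 3 members to LLC and to dexamethasone differed by a test of the difference itself, by -1.93 for Ncam1, -1.57 for Runx1 and -0.79 for Hdac4 on the log2 scale. The responses of Ncam1 to age and to dexamethasone differed by -1.65, a call that was lost in 14 of its 34 alternatives, among them rescaling without mitochondrial genes (adjusted p = 0.0747 by limma) and the 3 forms of voom (adjusted p = 0.27 to 0.335).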

How the results depend on the processing

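With dexamethasone, the calls of Ncam1, Runx1 and Sik1 held under every alternative that tested them. Hdac4 lost its call after scaling (0.40), after rescaling without mitochondrial genes (0.50), with voom and scaling (0.43) and with scaling, no filter and a pseudocount of 0.1 together (0.43). The cause was not tested. A filter of 5 TPM left no value for members under it. The filter of 1 TPM left out Dach2 with age, dexamethasone and LLC, Runx1 with age and LLC, and Ncam1 with age. Runx1 had 24 to 201 recovered reads in the age experiment.

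The count of all genes called with age was 18, and 0 without the filter, after scaling, with voom and scaling and with the joint setting, 2 with either form of voom without scaling, 5 without mitochondrial genes and in 1 fit of all groups, 86 with robust eBayes and 0 to 274 without 1 library. The members called were 0 to 1. With dexamethasone it was 4470, and 1093 after scaling (530 higher and 563 lower, against 4290 and 180), 985 without mitochondrial genes, 1869, 1079 and 2303 with voom, voom and scaling, and voom at 10 reads, 1329 with the joint setting and 1918 to 8715 without 1 library. With LLC it was 128, and 8 without the filter, 81 at 5 TPM, 351 after scaling (181 higher and 170 lower, against 32 and 96), 541 without mitochondrial genes, 262, 414 and 299 with the 3 forms of voom, and 19 to 361 without 1 library. With the siRNAs it was 0 under every alternative run.

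For LLC against dexamethasone 3416 genes were called, and 813 after scaling (355 higher and 458 lower, against 135 and 3281), 683 without mitochondrial genes, 964, 705 and 1150 with the 3 forms of voom, 784 with the joint setting and 1700 to 6808 without 1 library. For age against dexamethasone 255 were called (94 higher and 161 lower, and 262 and 100 after scaling), and 115 with a pseudocount of 0.1, 469 without the filter, 82 at 5 TPM, 92, 159 and 154 with voom, 492 with the joint setting and 133 to 392 without 1 library. For age against LLC 6 were called (5 higher and 1 lower), and 14 and 10 with pseudocounts of 0.1 and 0.5, 14 without the filter, 2 at 5 TPM, 28 after scaling (17 higher and 11 lower), 10 without mitochondrial genes, 10 with robust eBayes, 15, 15 and 19 with voom, 38 with the joint setting and 4 to 42 without 1 library.

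Signs turned in values that were not called. With LLC, Hdac9 was 0.02 after scaling, with the 3 forms of voom and with the joint setting and 0.09 without mitochondrial genes, and Hdac4 was 0.07 without mitochondrial genes and 0.00 with voom and scaling. With the siRNAs, Hdac9 was -0.04 after scaling and with voom and scaling, -0.02 without mitochondrial genes, -0.01 with the other forms of voom and -0.05 with the joint setting. The LLC against dexamethasone value of Dach2 was 0.11 after scaling and without mitochondrial genes, 0.04 with voom and scaling and 0.10 with the joint setting. The age against dexamethasone value of Hdac9 was 0.03 and 0.00 with pseudocounts of 0.1 and 0.5, 0.18 after scaling, 0.20 without mitochondrial genes, 0.17, 0.22 and 0.17 with voom and 0.25 with the joint setting, and that of Runx1 was 0.01, 0.09 and 0.01 with voom. Without 1 library, LLC values ran from -0.35 to 0.06 for Ncam1, -0.17 to 0.03 for Hdac4, -0.10 to 0.08 for Hdac9 and -0.03 to 0.38 for Sik1, and siRNA values from -0.48 to 0.14 for Ncam1, -0.22 to 0.24 for Runx1, -0.14 to 0.23 for Hdac9 and -0.04 to 0.42 for Sik1. The LLC against dexamethasone value of Dach2 ran from -0.18 to 0.01. The age against dexamethasone values ran from -0.16 to 0.21 for Dach2, -0.15 to 0.17 for Hdac9 and -0.98 to 0.07 for Sik1, and the age against LLC values from -0.06 to 0.30 for Dach2 and -0.09 to 0.96 for Sik1.

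The groups share replicate numbers, and the labels do not say whether these mark pairs. Deviations of same-numbered libraries correlated at 0.04 to 0.14 with age and 0.03 to 0.50 with dexamethasone. With LLC they correlated at 0.04 to 0.37, and with the siRNAs at 0.09 to 0.50. The best match was the own number for replicates 2 and 3 with age and 1 and 4 with dexamethasone. It was so for replicates 1, 2 and 3 with LLC and 1 and 3 with the siRNAs. These values cannot decide whether the samples were paired, and the main fits took them as unpaired. With the replicate block 152 genes were called with age, 502 with LLC, 408 for age against dexamethasone and 30 for age against LLC, and the age against dexamethasone value of Runx1 (-0.95) was called (adjusted p = 0.0121 by limma). Without subtracting experiment means, the genes most like the members were Myh8 (Ncam1), Ahnak2 (Runx1), Trp63 (Hdac4), Rbfox2 (Hdac9), Sp4 (Dach2) and Tgif1 (Sik1).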
